A study of Caenorhabditis elegans with 2 samples.

Results

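Regions listed from a ChIP-seq experiment for UNC-39 were examined at 48 named neuronal genes of Caenorhabditis elegans, out of 19973 protein-coding genes on the 6 nuclear chromosomes. Of these, 24 are grouped here as pan-neuronal, for vesicle release, peptide processing, axonal transport and the active zone. Whether each of them is used in all neurons was not examined. The other 24 make, load, transport, degrade or sense particular neurotransmitters. All 48 genes were taken by name for their function, and no value measured in the ChIP-seq data is part of that rule. UNC-39 is a homeodomain protein related to vertebrate SIX4 and SIX5. The material was whole L4 larvae of both sexes from the strain OP186, in which the integrated transgene wgIs186 expresses UNC-39 fused at its C terminus to GFP and FLAG, and which carries the mutation unc-119(ed3) on III. There were 2 biological replicates of this strain and no other group, and a possible control is named in the labels but is not analysed here. The tagged protein came from a transgene, and signal from neurons cannot be told apart from signal from any other cell of the animal.

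Neurons release transmitter when vesicles, loaded by a transmitter-specific transporter, fuse with the membrane at the active zone through SNARE proteins and their partners. Neuropeptides travel in dense core vesicles and need their own processing enzymes and release factors. In the worm, the identity of a neuron is set largely by homeodomain proteins acting on the genes of its transmitter pathway, while genes shared by all neurons are controlled redundantly by many inputs. UNC-39 itself is known for roles in the migration of the CAN neurons and in the development of mesodermal cells such as coelomocytes.

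The DNA under some of the strongest regions is shown first, because the text returns to these places. For each gene the 201 bases centred on the summit of its best pooled region are printed in the direction of transcription of that gene, read from the RefSeq copy of assembly WBcel235, which corresponds to ce11. Apart from unc-11 and maco-1, whose sequences are not shown, they are the 6 highest-ranked genes whose best region overlapped a region of both replicates. Capitals mark TGATAC, or its reverse complement GTATCA, a short sequence bound by relatives of UNC-39. The other sequences searched, which were TGACAC, the repeat GAGAGA and, for homeodomain proteins in general, TAATTA, had no match in these 6 windows on either strand.
rab-3, chrII:5722663-5722863, minus strand: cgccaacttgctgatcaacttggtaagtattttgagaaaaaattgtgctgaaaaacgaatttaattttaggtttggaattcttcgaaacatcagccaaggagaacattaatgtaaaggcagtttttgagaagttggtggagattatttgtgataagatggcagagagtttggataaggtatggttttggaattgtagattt
syd-2, chrX:10555489-10555689, minus strand: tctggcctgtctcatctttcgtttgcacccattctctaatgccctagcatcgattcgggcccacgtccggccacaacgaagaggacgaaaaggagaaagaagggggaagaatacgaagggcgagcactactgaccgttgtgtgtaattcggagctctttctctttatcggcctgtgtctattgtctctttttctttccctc
unc-10, chrX:7276358-7276558, minus strand: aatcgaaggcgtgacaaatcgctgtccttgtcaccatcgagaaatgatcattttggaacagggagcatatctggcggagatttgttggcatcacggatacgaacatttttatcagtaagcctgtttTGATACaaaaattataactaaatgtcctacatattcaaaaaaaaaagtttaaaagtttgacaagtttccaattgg
unc-44, chrIV:5974335-5974535, plus strand: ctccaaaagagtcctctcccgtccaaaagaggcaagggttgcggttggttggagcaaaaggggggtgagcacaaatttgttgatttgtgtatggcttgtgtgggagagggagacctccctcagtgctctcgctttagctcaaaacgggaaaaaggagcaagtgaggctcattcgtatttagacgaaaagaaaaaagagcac
cat-1, chrX:5708008-5708208, minus strand: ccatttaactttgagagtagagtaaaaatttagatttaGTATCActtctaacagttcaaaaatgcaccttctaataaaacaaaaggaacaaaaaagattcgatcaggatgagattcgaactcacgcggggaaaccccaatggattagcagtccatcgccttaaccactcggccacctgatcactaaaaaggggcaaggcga
unc-64, chrIII:13277983-13278183, plus strand: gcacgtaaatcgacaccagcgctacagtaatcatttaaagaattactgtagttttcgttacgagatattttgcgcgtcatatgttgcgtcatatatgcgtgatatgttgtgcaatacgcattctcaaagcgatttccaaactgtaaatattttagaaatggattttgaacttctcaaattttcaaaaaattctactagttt
The summits at rab-3 and unc-10 lie in coding exons, and those at cat-1 and unc-64 in introns. The windows at syd-2 and unc-44 lie upstream of the genes and were richer in G+C, at 50.2% and 48.8%, than those at rab-3 (34.3%) and unc-10 (35.8%). The window at cat-1 covers a tRNA gene.

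Each list of regions holds 30000 entries, ranked by the signal value that the authors' peak caller gave, with rank 1 the strongest. These relaxed lists are made to contain background as well as peaks, so having a region is weak evidence by itself. A region was counted at a gene if its summit lay in the gene body or within 2000 bases of the 5′ end of an annotated transcript. Many worm transcripts are trans-spliced, so that end can lie downstream of the place where transcription begins. The number of reads behind the regions was not given with the lists, so the depth is unknown. No condition was compared and no list was tested, and values are set beside those of all protein-coding genes counted in the same way.

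Most neuronal genes had a region, and a minority had a strong one. In the pooled list 43 of the 48 (89.6%) had at least 1 region, against 77.5% of all protein-coding genes, and each replicate list also gave 43 of 48. Of the 48 genes, 15 (31.2%) had a region among the 3000 strongest of the pooled list, against 14.6% of all genes. None had one of the 63 optimal peaks that the authors kept by IDR, whose lowest signal value was 24.4, and over all protein-coding genes only 80 of 19973 had one. The strongest regions at these genes, with 22.8 at unc-11 and rab-3, 22.0 at syd-2 and 21.6 at unc-10, had ranks 83, 84, 104 and 117. Their signal values thus lay below the lowest in the optimal list.

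Genes of the pan-neuronal group had strong regions more often than transmitter genes, and they were also longer. Of the 24 pan-neuronal genes 11 (45.8%) had a region among the 3000 strongest, and of the 24 transmitter genes 4 (16.7%), close to the 14.6% of all genes. Their median windows were 8987 and 6738.5 bases, against 4175 bases for all genes. Per 100 kb of window there were 41.7 regions at pan-neuronal genes, 31.7 at transmitter genes and 30.6 at all genes. The median rank of the best region was 2903.5 for the 22 pan-neuronal genes with a region, 9075 for the 21 transmitter genes and 9613 for all genes with one.

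**Figure D1:**
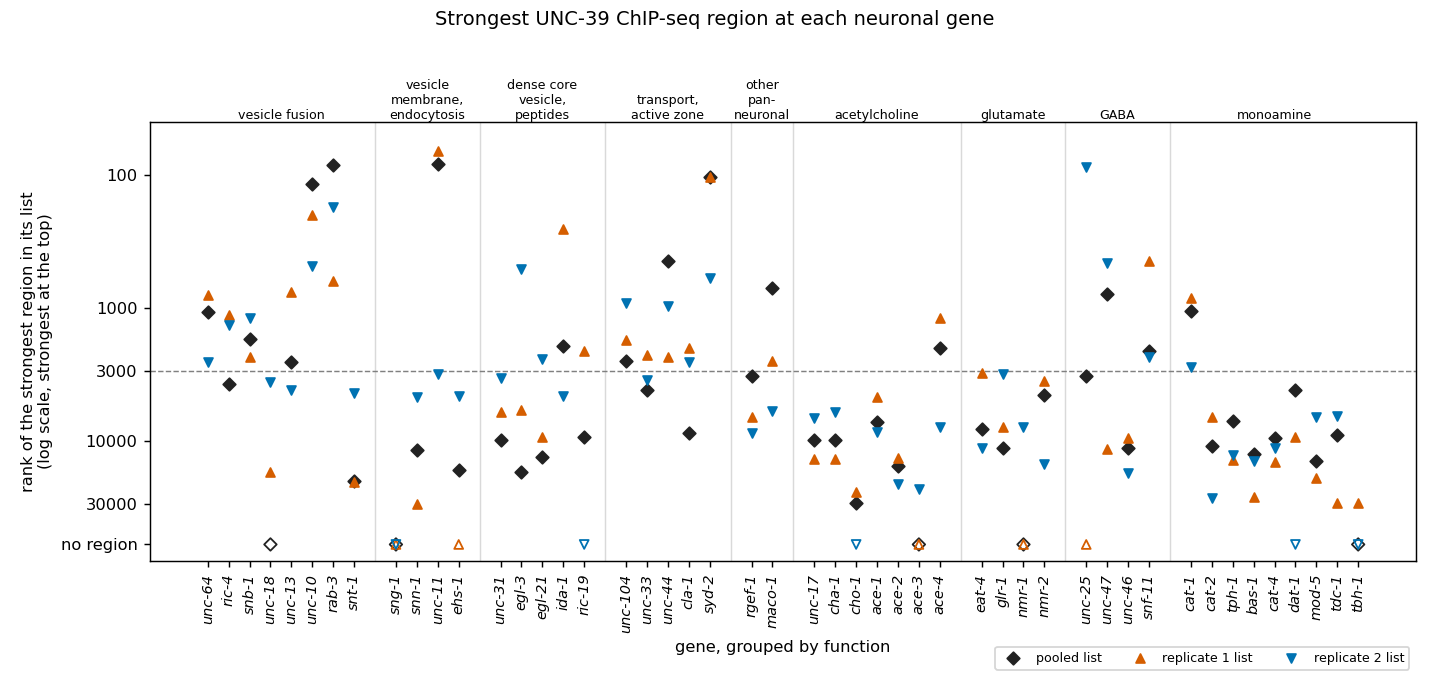
Rank of the strongest region at each of the 48 genes in the pooled, replicate 1 and replicate 2 lists, on a log axis with the strongest at the top; open symbols mean that the list had no region there, and the dashed line is rank 3000. The pooled ranks of unc-11, rab-3, syd-2 and unc-10 lie near 100, unc-25 is high in replicate 2 and open in replicate 1, and no glutamate gene reaches the line.

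By number, the vesicle fusion machinery held more of the strong regions than any other function group. Of its 8 genes 5 (62.5%) had a pooled region among the 3000 strongest, against 14.6% of all genes. The share was similar for axonal transport and the active zone, at 3 of 5 genes (60%). The vesicle fusion group held 10 of the 20 such regions found at all 48 genes, with 4 at unc-10 and 3 at rab-3. The gene rab-3 (WBGene00004267) encodes the Rab GTPase of synaptic vesicles. Its best region, in a coding exon 1967 bases downstream of its nearest transcript start, had signal values of 22.8 in the pooled list, 11.0 in replicate 1 and 10.1 in replicate 2. Its ranks there were 787 and 174 in the replicates. Further regions overlapping each other lay in an intron, 398 and 676 bases upstream of an internal transcript start, at pooled ranks 660 and 519. The same replicate regions, at ranks 627 and 4206, overlapped both of these.

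The gene unc-10 encodes RIM, a scaffold of the active zone that binds RAB-3. It had 4 regions among the 3000 strongest, more than any other of the 48 genes. The best, in a coding exon 3843 bases from the start, had a signal value of 21.6 in the pooled list, 13.8 in replicate 1 and 8.49 in replicate 2, with replicate ranks of 202 and 482. A second coding exon region at 1707 bases ranked 379 in the pooled list, 1673 in replicate 1 and 1774 in replicate 2. The others were a coding exon region at 7414 bases (pooled rank 558), which lay closer to the start of F46H5.11, and a region 878 bases upstream (pooled rank 897). Both replicates thus placed unc-10 high, and at more than 1 point along the gene.

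At the remaining fusion genes no strong region was shared by both replicates at the same place. At unc-64, the syntaxin gene, an intronic region ranked 1075 in the pooled list, 802 in replicate 1 and 22254 in replicate 2. At snb-1, the synaptobrevin gene, the order was opposite, with a region 199 bases upstream that ranked 1714 in the pooled list, 17678 in replicate 1 and 1203 in replicate 2. That region also lay within the window of the neighbouring gene syx-18. For ric-4, the SNAP-25 gene, the best region ranked 3715 in the pooled list and 1139 in replicate 1 and had no partner in replicate 2. At each of these 3 SNARE genes the best pooled region thus met a region among the 3000 strongest in 1 replicate and not in the other. The priming factor gene unc-13 had 13 pooled regions in a window of 33332 bases. Its best ranked 2535 in the pooled list, 755 in replicate 1 and 16115 in replicate 2. The calcium sensor gene snt-1, synaptotagmin, had nothing above pooled rank 20190, where replicate 1 had no partner and replicate 2 one at rank 12186. The syntaxin-binding protein gene unc-18 had no pooled region, and its replicate regions, at rank 17254 in replicate 1 and 3624 in replicate 2, lay in different parts of the gene.

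Of the genes for vesicle membrane proteins and endocytosis, unc-11 stood first. It encodes the AP180 clathrin adaptor that retrieves synaptobrevin. The region 971 bases upstream of unc-11 had signal values of 22.8 in the pooled list, 16.8 in replicate 1 and 5.78 in replicate 2. It ranked 67 in replicate 1 and 3130 in replicate 2, and so stood higher in the first of these lists. The synapsin gene snn-1 had a best pooled rank of 11772, with no partner in replicate 1 and rank 4672 in replicate 2. The best pooled region of ehs-1, which encodes the endocytic adaptor EPS15, ranked 16483. It overlapped a replicate 1 region at rank 26971, whose own summit lay outside the window, so that replicate 1 had no region at ehs-1. The synaptogyrin gene sng-1 was the only one of the 48 genes with no region in any of the 3 lists.

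Among 5 genes of dense core vesicles and peptide processing only 1 (20%) reached the 3000 strongest pooled regions, against 14.6% of all genes. This was ida-1, the IA-2 phosphatase-like gene. Its best region lay in an intron 2066 bases from the start and ranked 1923 in the pooled list, 2224 in replicate 1 and 16055 in replicate 2. A second region of ida-1, in a coding exon, ranked 254 in replicate 1 and 3083 in the pooled list and had no partner in replicate 2. The egl-3 gene, which encodes the proprotein convertase that cuts neuropeptide precursors, showed the opposite. A region at position -1156 from its start ranked 513 in replicate 2, where the signal value was 8.40, and the overlapping replicate 1 region ranked 5855. In the pooled list the overlapping region of egl-3 ranked 17845, and its best pooled region, elsewhere in the gene, 17104. The carboxypeptidase gene egl-21 (13227), the CAPS gene unc-31 (9768) and ric-19, an ICA69 relative (9291), had best pooled ranks in the middle of the list. The region at ric-19 lay closer to the start of pmlr-1, and ric-19 had rank 2108 there in replicate 1 and no region in replicate 2.

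The genes of axonal transport and the active zone included the best example of a region near a start. The gene syd-2 encodes liprin-alpha, which organizes presynaptic assembly. Its region 350 bases upstream had signal values of 22.0 in the pooled list, 15.4 in replicate 1 and 8.17 in replicate 2, with replicate ranks of 105 and 598. No other protein-coding gene had that summit in its window, but the ncRNA gene F59F5.9 lay within 500 bases of it. A weaker pooled region, at rank 15698, overlapped it and shared its replicate partners. For unc-44, the neuronal ankyrin gene, 16 pooled regions lay in a window of 31301 bases, the most at any of the 48 genes. The best of them, 1122 bases upstream, ranked 448 in the pooled list, 2900 in replicate 1 and 978 in replicate 2.

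At unc-104, the kinesin-3 gene that moves synaptic vesicle precursors, the best region ranked 2514 in the pooled list but 15067 and 5336 in the replicates. It lay in an intron 7361 bases from the start and covered the tRNA gene WBGene00022966. The strongest replicate regions of unc-104, at rank 1732 in replicate 1 and 927 in replicate 2, lay elsewhere in the gene and had no partner in the other replicate. The CRMP gene unc-33, needed for axon outgrowth, had a best pooled rank of 4147, and cla-1, the large active zone gene clarinet, one of 8765 within the longest window of the set (41308 bases), where replicate 1 ranked 2005 and replicate 2 had no partner. Of the 2 other pan-neuronal genes, maco-1, macoilin, had a region 580 bases upstream that ranked 715 in the pooled list, 2514 in replicate 1 and 6012 in replicate 2. The best pooled region of rgef-1, a Ras exchange factor gene, ranked 3272 and had no partner in replicate 1. It overlapped a replicate 2 region at rank 2380, whose own summit lay outside the window. The best replicate 2 region with its summit in the window of rgef-1 ranked 8732.

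**Figure D2:**
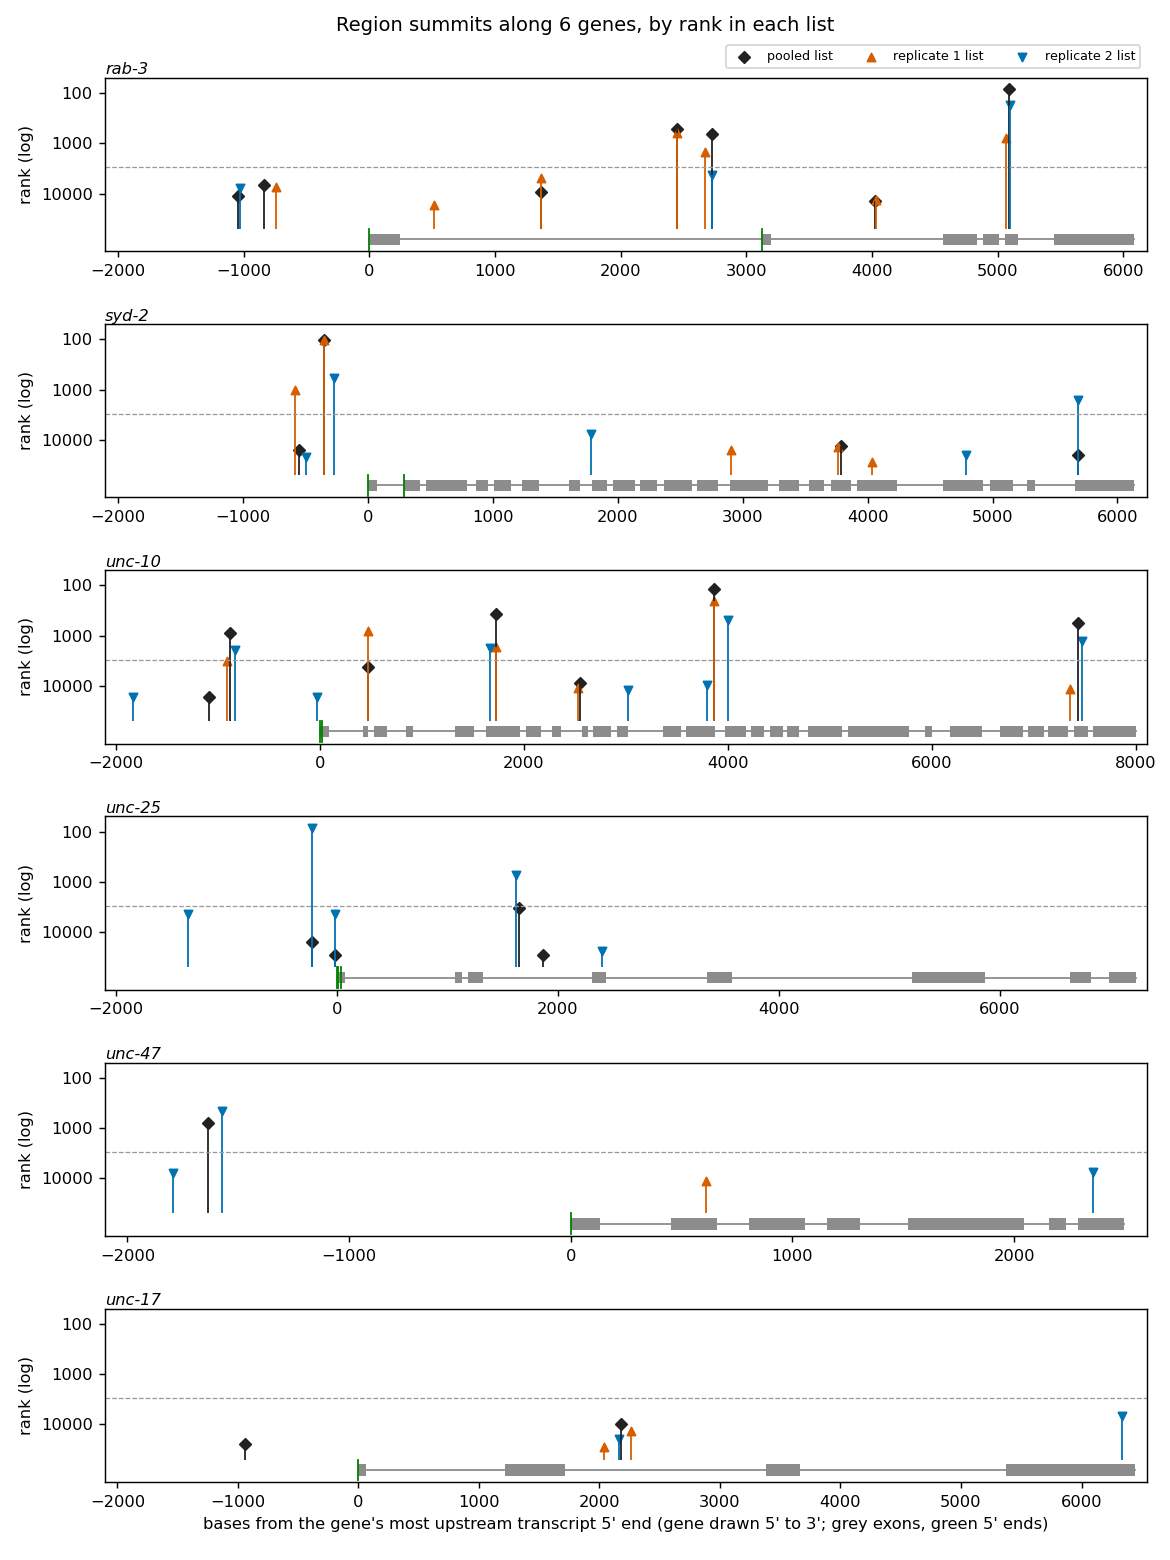
Summits of the regions in the window of 6 genes, drawn from the start to the end of each gene in bases from its most upstream transcript start, with height giving the rank in each list on a log axis; grey boxes are exons, green ticks transcript starts and the dashed line rank 3000. At rab-3, syd-2 and unc-10 the 3 lists share strong summits, at unc-25 and unc-47 the strong summits are those of replicate 2, and unc-17 has no summit above the line.

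Of the 7 acetylcholine genes only ace-4 (14.3%) had a pooled region among the 3000 strongest, close to the 14.6% of all genes. The median best rank was 9820 for the 6 acetylcholine genes with a region, against 9613 for all genes with one. The locus of unc-17, the vesicular acetylcholine transporter gene, is nested with cha-1, the choline acetyltransferase gene, and the pair shares a first exon and 2 pooled regions. The stronger of these ranked 9820 in the pooled list, 13676 in replicate 1 and 19318 in replicate 2. The choline transporter gene cho-1 had a single pooled region, at rank 29291, with no partner in either replicate. Elsewhere in its window replicate 1 had a region at rank 24014, and replicate 2 had none. Of the acetylcholinesterase genes, ace-4 had an intronic region 261 bases from its start that ranked 1993 in the pooled list and 1198 in replicate 1 and had no partner in replicate 2. The gene ace-3 had no region in the pooled list or replicate 1 and 2 in replicate 2, the better at rank 22873, and ace-1 and ace-2 had best pooled ranks of 7169 and 15452.

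None of the 4 glutamate genes had a pooled region among the 3000 strongest, against 14.6% of all genes. The vesicular glutamate transporter gene eat-4 had a best pooled rank of 8211, with rank 3096 in replicate 1 and no partner in replicate 2, and that summit lay 181 bases from the start of ZK512.7. The receptor subunit genes glr-1 (AMPA type) and nmr-2 (NMDA type) had best pooled ranks of 11323 and 4547. The region at glr-1 ranked 27240 in replicate 1 and 19781 in replicate 2. The one at nmr-2 ranked 3561 in replicate 1, had no partner in replicate 2 and was closer to the start of hrde-2. None of these 3 genes was thus high in both replicates. The other NMDA-type gene, nmr-1, had a single region, at rank 7875 in replicate 2.

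Of the GABA genes, unc-25 and unc-47 had strong regions in replicate 2 and not in replicate 1. The gene unc-25 encodes glutamic acid decarboxylase, which makes GABA. A region 224 bases upstream of unc-25 ranked 87 in replicate 2, with a signal value of 11.5, and this was the highest replicate 2 rank at any of the 48 genes. Replicate 1 had no region anywhere in the window of unc-25, and the overlapping pooled region ranked only 15536. The best pooled region of unc-25 lay in an intron at rank 3278, and it ranked 747 in replicate 2. For unc-47, the vesicular GABA transporter gene, a region at position -1637 from the start had signal values of 14.9 in the pooled list and 8.56 in replicate 2 and no partner in replicate 1. Its pooled rank was 790 and its replicate 2 rank 459, and the nearest start was that of epac-1.

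The remaining GABA genes differed from this. At snf-11, the plasma membrane GABA transporter gene, a coding exon region 1152 bases from the start ranked 2130 in the pooled list, 442 in replicate 1 and 2332 in replicate 2. Both replicates therefore had a region among their 3000 strongest that overlapped this snf-11 region. The replicate summits lay apart, at 1161 bases from the start in replicate 1 and 1447 in replicate 2. For unc-46, a LAMP-like gene needed to sort the vesicular GABA transporter, the best pooled region ranked 11233, with 18563 and 17578 in the replicates.

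Of 9 monoamine genes only cat-1 (11.1%) had a pooled region among the 3000 strongest, against 14.6% of all genes. The gene cat-1 encodes the vesicular monoamine transporter, which loads dopamine, serotonin, tyramine and octopamine. The intronic region of cat-1 ranked 1057 in the pooled list, 850 in replicate 1 and 11977 in replicate 2, and it covers the tRNA gene WBGene00022974, which spans X 5708028 to 5708109. Overlap with a tRNA, snRNA, snoRNA or rRNA gene was seen for 3 of the 174 regions (1.72%), against 1.07% of all pooled regions. Whether the tRNA gene has a part in the cat-1 region was not tested.

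The synthesis genes of the monoamine pathways had weaker regions. Their best pooled ranks were 10944 for cat-2 (tyrosine hydroxylase), 7038 for tph-1 (tryptophan hydroxylase), 12574 for bas-1 (aromatic amino acid decarboxylase) and 9556 for cat-4 (GTP cyclohydrolase). The tyrosine decarboxylase gene tdc-1, which makes tyramine, had a best pooled rank of 9075, at a summit closer to K01C8.2. The gene tbh-1, tyramine beta-hydroxylase, had no pooled region and, apart from a replicate 1 region at rank 29526, none in the replicates. The dopamine transporter gene dat-1 had a best pooled rank of 4122, with rank 11211 in replicate 1 and no region in replicate 2. The serotonin transporter gene mod-5 had one of 14156, with 25532 in replicate 1 and 12818 in replicate 2.

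The replicates were compared next, because a pooled rank can come from 1 of them. Counting any overlap of at least 1 base, 30 of the 48 genes (62.5%) had a pooled region that met a region of both replicates. Over all protein-coding genes the share was 35.0%. The windows of the 48 genes were longer, with a median of 7559.5 bases against 4175. Genes with windows of like length were not compared for this count. Of the 174 distinct pooled regions at the 48 genes, 66 (37.9%) met both replicates, 54 replicate 1 only, 40 replicate 2 only and 14 neither, and over all 30000 pooled regions 30.7% met both. Asking that both replicate regions be among the 3000 strongest of their own lists left 5 genes (10.4%), against 1.72% of all genes. These were rab-3, unc-10, unc-44, syd-2 and snf-11. The gene unc-11 missed this by its replicate 2 rank of 3130.

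Strong regions in both replicates did not always lie at the same place. Each replicate had a region among its 3000 strongest somewhere in the window of 11 of the 48 genes (22.9%), against 3.99% of all genes. Longer windows hold more regions, and this count too was not set beside genes with windows of like length. For 6 of those 11 no pooled region met regions of both replicates that were each among the 3000 strongest, namely at unc-64, ric-4, snb-1, unc-104, cla-1 and cat-1. Replicate 1 alone gave 18 of the 48 genes with a region among its 3000 strongest, against 3046 of all 19973 genes. Replicate 2 alone gave 15 of the 48, against 2970 of all genes. By function, both replicates were high at the same place for 2 of 8 vesicle fusion genes, 2 of 5 transport and active zone genes and 1 of 4 GABA genes, and for none of the genes of the remaining groups.

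**Figure D3:**
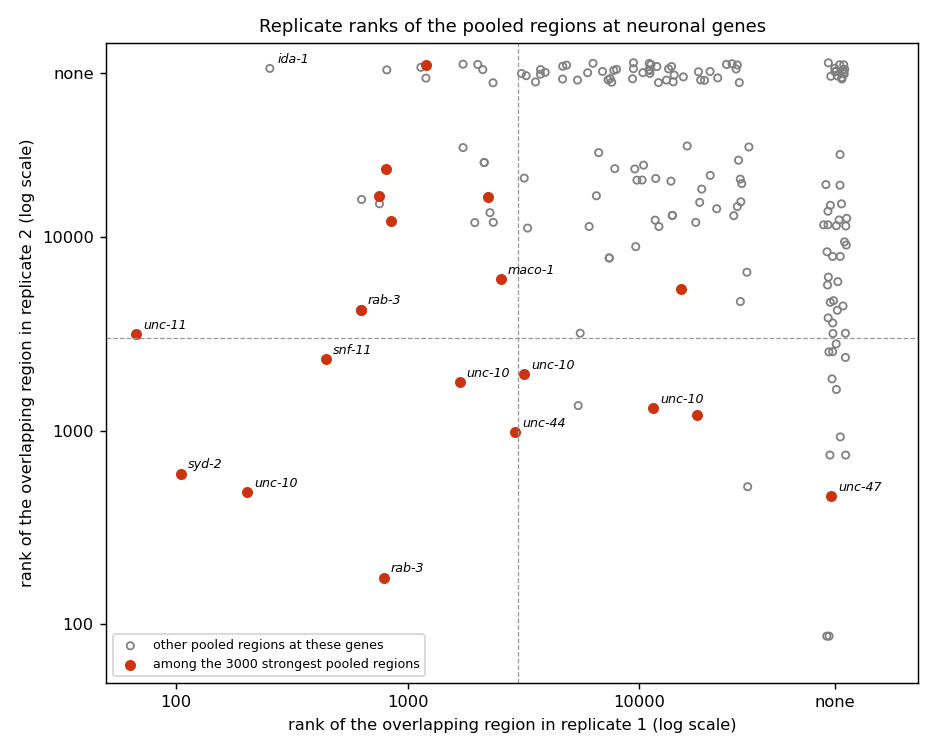
Each point is 1 of the 174 pooled regions at the 48 genes, placed by the rank of the overlapping region in replicate 1 and replicate 2 on log axes; filled points are among the 3000 strongest pooled regions, dashed lines mark rank 3000, and points at "none" (spread slightly for display) had no partner. The lower left quadrant holds regions of syd-2, unc-10, rab-3, unc-44 and snf-11, while unc-47 and the unfilled unc-25 points below rank 100 of replicate 2 have no partner in replicate 1.

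Genes were next set beside others with windows of like length. The 13 neuronal genes with windows over 10000 bases all had a region, as did 97.8% of the 1543 such genes among all protein-coding genes. The median number of regions was 7 against 4. From the next longest to the shortest class, 92.9%, 78.6% and 85.7% of the neuronal genes had a region, against 90.6%, 85.1% and 71.4%. A region among the 3000 strongest was found at 6 of the 13 genes with windows over 10000 bases (46.2%) against 35.7%. For windows over 7000 and up to 10000 bases it was found at 6 of 14 neuronal genes (42.9%) against 21.8%. For windows over 5000 and up to 7000 bases the order turned, with 1 of 14 (7.14%) against 16.4%, and for windows up to 5000 bases it turned back, with 2 of 7 (28.6%) against 10.7%. Strong support in both replicates was found at 2 of 13 (15.4%) against 4.67% in the longest class, at 2 of 14 (14.3%) against 2.66% and at 1 of 14 (7.14%) against 1.65% in the following classes, and at 0 of 7 against 1.27% in the shortest.

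**Figure D4:**
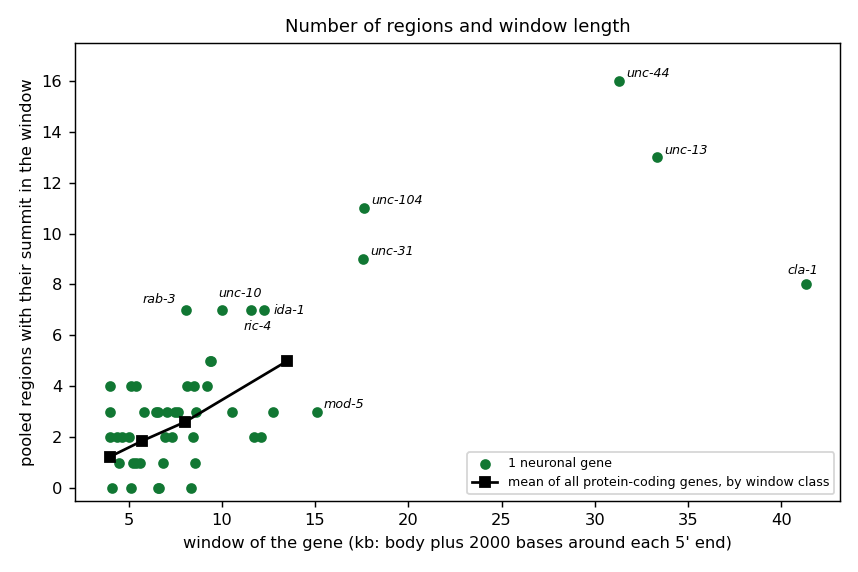
Number of pooled regions in the window of each of the 48 genes against window length in kb, with squares for the mean of all protein-coding genes in 4 classes of window length, placed at the median window of the class. The long genes unc-44, unc-13 and unc-104 hold the most regions, with 16, 13 and 11, and cla-1 has 8 in the longest window.

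By position, regions at neuronal genes lay in coding exons and introns more than upstream. The 174 distinct regions made 176 pairs of gene and region, because unc-17 and cha-1 shared 2, and merging overlaps left 159 places. Of the 176 pairs 63 (35.8%) had the summit in a coding exon, 62 (35.2%) in an intron and 41 (23.3%) upstream. Over all protein-coding genes the shares were 21.5%, 28.9% and 36.4%. The windows of the 48 genes themselves were 30.6% coding exon, 43.1% intron and 20.6% upstream. In the pooled list coding exons and upstream bases thus held more summits than their shares of the window, and introns fewer. In replicate 1 alone coding exons held 31.4%, introns 41.1% and upstream bases 19.4%, so the upstream share was below that of the window. In replicate 2 alone the shares were 37.1%, 34.7% and 24.7%. These differences were not tested. Among the 20 strongest pairs 7 were upstream, including those of unc-11, syd-2, unc-44 and maco-1, 8 intronic and 5 in coding exons. The nearest protein-coding start was the gene's own for 133 of the 176 pairs (75.6%). This share was not computed for all genes, and the window rule itself favours the gene's own start.

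Sequence features were counted around each summit. Within 100 bases of the summit TGATAC stood in 13 of the 174 regions (7.47%, exact 95% interval 4.04 to 12.4), as at unc-10 and cat-1, against 6.84% of all pooled regions. TGACAC stood in 10 (5.75%, 2.79 to 10.3) against 8.07%, GAGAGA in 27 (15.5%, 10.5 to 21.8) against 13.1%, and TAATTA in 13 (7.47%, 4.04 to 12.4) against 8.59%. The intervals are Clopper-Pearson, cover counting error over regions only, and each held the value of all regions. The mean G+C content was 38.2% ± 6.80 (SD over 174 regions) against 36.4% ± 6.87 over all 30000.

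Further genes of the same pathways were counted in the same way. Of 53 transmitter receptor genes 51 (96.2%) had a pooled region, against 77.5% of all protein-coding genes. A region among the 3000 strongest was found at 11 (20.8%), against 14.6%. The median window of the receptor genes was 7969 bases, against 4175 for all genes. The best receptor rank was 200, at avr-14, a glutamate-gated chloride channel gene. That region ranked 83 in replicate 1 and had no partner in replicate 2. None of the 53 had a region among the 3000 strongest of both replicates at the same place, against 1.72% of all genes. With so low a share, finding none among 53 says little. Of 34 further genes of the synapse and axon 15 (44.1%) had a pooled region among the 3000 strongest, against 14.6% of all genes. In this list 3 (8.82%) were high in both replicates, against 1.72%. Those were unc-76, an axonal transport adaptor gene, nrx-1, neurexin, and unc-119, the gene that is mutated in the strain. Whether the strain's genotype at unc-119 has a part in the regions at that gene was not tested. The long windows of this list, with a median of 11017.5 bases, go with its counts, and their part in them was not tested.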

How the data were processed

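UNC-39 was profiled by ChIP-seq in 2 biological replicates of whole L4 larvae, per the labels. The signal values were deposited by the authors in narrowPeak lists with no scale stated. Per notes deposited beside the files, a replicate list was made from the alignments of its own library with one more file, which also went into the control-normalized tracks. The pooled list used both libraries, and IDR of these lists gave the optimal peaks. Which aligner and peak caller were used, and the read depth, is not given in the sources used here. Only lists on ce11 entered, and those on ce10 were not used.

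Region width was 400 bases, except 404 in replicate 1. Regions were ranked within each list and assigned with Ensembl release 115 genes of WBcel235, whose 6 chromosomes hold every region. Signal values were not compared in amount between lists, except that pooled values were set against the lowest value of the optimal list. The members, the lists and the rules were chosen with earlier results of these data known. Of the further pathway genes 2 names were not found. Full values were given for genes with a region among the 3000 strongest, for the best and lowest of each function group and for genes without a region in some list; others are named to place a region. No test was run, because the series has a single group and lists without read counts. Assignment and overlap were checked on planted regions. Alternatives changed list, window, threshold and overlap rule. Computations ran in Python 3.11.15 with pandas 2.3.3, numpy 2.4.6, scipy 1.17.1 (intervals) and, for plots, matplotlib 3.10.9.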

Additional observations from a re-analysis of the deposited data

How the results depend on the processing

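Of 55 alternatives 28 stayed close to the reported value, and those that moved are given here. Closeness was judged by fold change for counts and by the exact 95% interval for shares. For density and median rank it was judged by the SD between the replicate lists. Causes were not tested except where the setting itself sets the value. The count of 43 genes with a region was 40 to 43 under every other window and either replicate alone, and 39 when a region had to lie nearest to the gene's own start. It fell by construction to 15, 7 and 5 with the 3000, 1000 and 500 strongest regions and to 0 with the optimal peaks. The 15 genes with a region among the 3000 strongest became 9 with the gene body alone, 7 with the 1000 strongest, and 15 to 18 leaving out a replicate. That count was 13 with windows of 1000 bases and 11 with windows of 500 bases or without the gene body, which counted as close. For it, no share of all genes was computed with changed windows. The 30 genes supported in both replicates became 19 with summits within 100 bases, 10 with replicate regions among their 10000 strongest and 5 among their 3000 strongest, the last added after the data were seen. Density (38.2 per 100 kb) was 36.9 to 38.0 leaving out a replicate, 37.3 with windows of 500 bases, 39.1 without the gene body and 36.3 with the gene body alone. Without the 4 longest windows, also added later, it was 37.9. The median best rank (7038) was 4389 to 5855 leaving out a replicate, 8211 with windows of 500 bases, 8670.5 without the gene body and 9457 with it alone. Among the 3000 strongest the upstream share rose from 23.3% to 35% and the coding exon share fell from 35.8% to 25%, over 20 pairs; leaving out a replicate these were 19.4% to 24.7% and 31.4% to 37.1%. Motif shares follow the width searched. With 50 bases on each side TGACAC stood in 0.575%, GAGAGA in 9.77% and TAATTA in 3.45%, and with 200 bases TGATAC stood in 14.4%, TGACAC in 12.1%, GAGAGA in 25.9% and TAATTA in 17.8%. No paired analysis was possible because the series has a single group. With unknown depth, a missing region is no sign that UNC-39 was absent.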
